A study of Homo sapiens with 8 samples.

Results

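SK-N-DZ, an established human neuroblastoma cell line, was measured on 2 arrays, 1 of cells infected with a lentivirus made from the pLKO.1 vector alone (shCont) and 1 of cells infected with the same vector carrying a short hairpin RNA against BMI1 (shBMI1-1). They are 2 of the 8 arrays of the series, chosen by their titles. The other 6 arrays hold the same pair of infections in the neuroblastoma lines NB-39-nu, SH-SY5Y and SK-N-BE. All groups were harvested for RNA 8 to 14 days after infection, with the day of a given sample not stated. The knockdown rests on a single hairpin, and no source used here says whether infected cells were selected. Each array is an Affymetrix HG-U133 Plus 2.0 array, on which each probe set pools short probes that lie toward the 3' end of an mRNA. Of 19776 genes on the array, 9832 were bright in SK-N-DZ, which here means a signal of 200 or more in at least 1 of its 2 arrays. With 1 array a side there is no replicate, so no difference within SK-N-DZ carries a test, and "higher" and "lower" below describe the knockdown array against the control array. A mean over many cells cannot separate fewer cells of a kind from less RNA per cell.

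BMI1 is a subunit of Polycomb repressive complex 1 (PRC1), which holds developmental genes and cell cycle inhibitors silent and marks histone H2A with ubiquitin. It partners the RING ubiquitin ligases, and its paralogues of the PCGF family build related complexes. Neuroblastoma arises from the sympathoadrenal lineage, and many of its cells keep a noradrenergic identity set by transcription factors such as PHOX2A, HAND2 and GATA3. The series title concerns protection of neuroblastoma cells from apoptosis after DNA damage, and the arrays were made to find genes that respond to BMI1 loss.

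The SK-N-DZ arrays carried the markers of that lineage. Of 7 measured adrenergic markers 6 were bright, and TH, which encodes tyrosine hydroxylase, was dim at 172 and 67.0. Their summed signal was 39604 in the control and 31122 in the knockdown array. Of 8 mesenchymal or fibroblast markers, FN1, COL3A1 and LUM were bright, with a summed signal for the list of 11969 and 16491. No Schwann cell, endothelial or leukocyte marker was bright, and the highest signal among them was 193. FN1 held most of the mesenchymal sum, and without it the sum was 921 in the control and 744 in the knockdown array. The part of these markers in the results below was not tested. The arrays correlated at r = 0.975 over bright probe sets. Spiked hybridization controls had log2 ratios from -0.16 to 0.05, and the ratio of 3' to 5' GAPDH signal was 1.08 and 1.03. For ACTB the ratio of 3' to 5' signal was far from 1, at 5.16 in the control and 4.88 in the knockdown array. The spiked poly-A RNAs had a median log2 ratio of 0.26, from -0.47 to 0.59.

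BMI1 was lower in the knockdown array, at 1318 against 3345, which leaves 39.4% of the signal and a log2 ratio of -1.34. Log2 ratios throughout are log2(knockdown signal + 8) minus log2(control signal + 8), a scale that understates changes of dim genes. In the other lines the signal left was 24.6% in NB-39-nu, 65.5% in SH-SY5Y and 65.0% in SK-N-BE, so SK-N-DZ stood between them. BMI1's single probe set also matches a read-through transcript from the neighbouring gene COMMD3.

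Apart from BMI1, no bright PRC1 subunit differed by 2-fold between the SK-N-DZ arrays. Of 18 bright members 10 were higher and 8 lower, with a median log2 ratio of 0.05, beside 0.04 for all bright genes. PHC2, a polyhomeotic subunit that drives PRC1 clustering, was highest at 0.60 (1388 to 2114), followed by YAF2, a subunit of the variant complexes, at 0.52 (556 to 800). PCGF5, a BMI1 paralogue, was at -0.41 (392 to 294), but at 0.29 with the mean log2 ratio of all its probe sets, dim ones included. The closest paralogue, PCGF2, read 1407 and 1441 (0.03, and -0.52 with that mean), and RING1, a ubiquitin ligase partner, 773 and 754. The values of the chromobox subunits CBX2 and CBX6 were 1773 and 1715 and 909 and 770. In PRC2, which methylates histone H3, SUZ12, a core subunit, was lowest at -0.59 (4648 to 3086), while its partners EED at 0.12 and EZH2, the methyltransferase, at 0.19 lay above 0. LCOR was highest there at 0.56 (2313 to 3406), and the median of the 13 bright PRC2 genes was 0.16.

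Genes reported as BMI1 targets stayed under 2-fold where they were bright. CDKN2A, the locus of p16 and ARF, which restrain the cell cycle through RB and p53, read 1868 and 2448 (log2 ratio 0.39). WWOX was at 0.28, KIF1B at 0.17 and CADM1, an adhesion molecule, at 0.04. CDKN1A, CDKN2B, CDH1 and HOXC13 were dim, with signals of at most 155. Among 5 bright HOX genes, classical Polycomb targets, 4 were higher. Of all bright genes 55.4% were higher and 0.773% were 2-fold higher. HOXD10 passed 2-fold at 1.15 (107 to 247) and HOXD9 was at -0.46 (217 to 156). The direction of both turned with the mean of all their probe sets, to -0.20 for HOXD10 and 0.89 for HOXD9. MYCN, the oncogene amplified in many neuroblastomas, read 50064 and 44318 (-0.18).

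Over all bright genes the difference between the arrays was small. The log2 ratios had an SD of 0.35, 91.5% lay within 1.5-fold of equal signal, and 55.4% lay above 0. At least 2-fold higher were 76 genes (0.773% of bright genes), and at least 2-fold lower were 85 (0.865%). Most of them lay close to the brightness limit. Both arrays were bright for 23 of the 76 and 34 of the 85. Where the brighter array read 200 to 500, 4.58% of 2379 genes passed 2-fold, against 0.914% of 4159 genes between 500 and 2000 and 0.425% of 3294 genes above 2000. Above 2000, 1 gene was higher and 13 were lower. At the threshold itself, CCDC71L at 1.01 and FBXO33 at -1.004 lay just inside and PUS10 at 0.9998 and RDH11 at -0.9994 just outside.

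**Figure D1:**
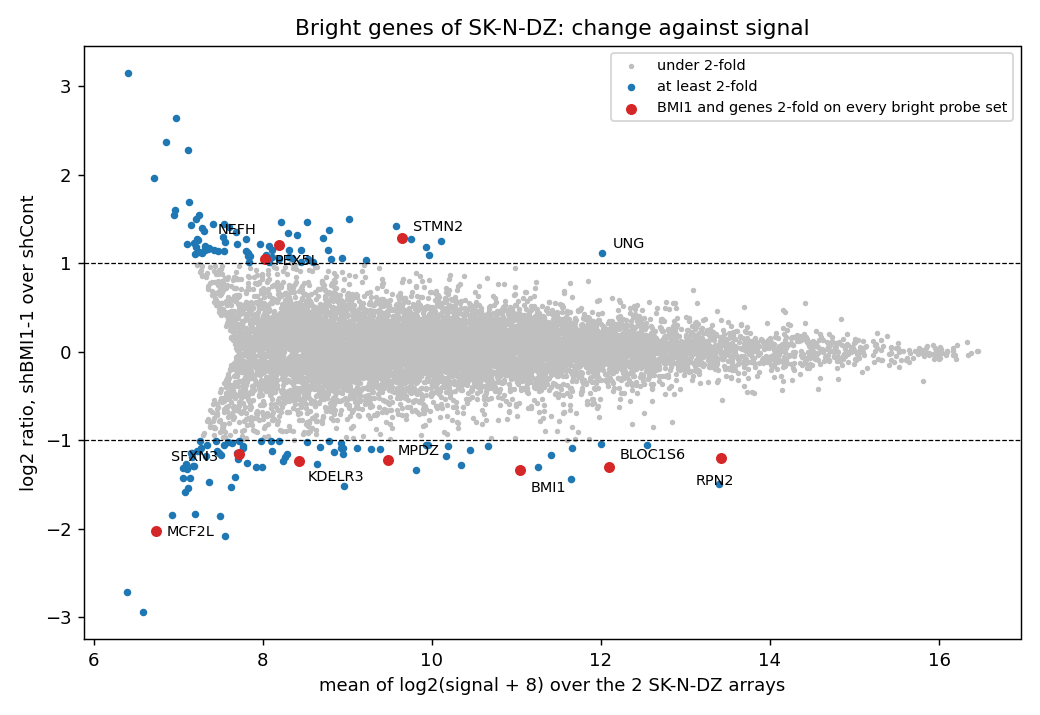
Each point is 1 of the 9832 bright genes of SK-N-DZ, with the mean of log2(signal + 8) over the 2 arrays on the x axis and the log2 ratio of knockdown over control on the y axis; dashed lines mark 2-fold. Points past 2-fold crowd at low signal, and above 2000 in the brighter array UNG is the 1 higher gene.

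These 14 genes past 2-fold are named after their values were seen. UNG, the uracil glycosylase of base excision repair, was the higher one (2803 to 6075, log2 ratio 1.11). Lower were RPN2 (oligosaccharyltransferase), SEC23A and ARFGAP3 (vesicle coats), and BLOC1S6 (a subunit of the BLOC-1 complex that sorts cargo to lysosome-related organelles), all described below. MALAT1, a nuclear long noncoding RNA, read 18080 and 6414, the small GTPase RAP1B 8620 and 4151, and the SRC-family kinase YES1 5867 and 2846. SC5D, a late enzyme of cholesterol synthesis, read 4058 and 1800, ARMC1 3851 and 1555, and ESF1, a nucleolar factor, 2041 and 942. The other bright probe set went from 1582 to 1205 (-0.39) for ARMC1 and from 901 to 801 (-0.17) for ESF1. For SC5D the mean log2 ratio of all probe sets was 0.53. BMI1, RASEF and CHGA complete the set.

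Agreement between probe sets of a gene was used to see which differences did not hang on 1 probe set. Such probe sets share both RNA samples, so agreement covers the probe set and not the condition. Of 4245 genes with 2 or more bright probe sets, 48.7% had all of them on one side of 0, and log2 ratios within a gene had an SD of 0.36. Of the 76 higher genes, 12 had another bright probe set. The others were all higher in 9 of these, all 2-fold higher in 3 and all lower in 3, with a median of 0.32. Of the 85 lower genes, 25 had another, all lower in 18, all 2-fold lower in 6 and all higher in 3, with a median of -0.43.

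All bright probe sets were at least 2-fold higher for 3 genes (0.0707% of the 4245), NEFH, PEX5L and STMN2, and at least 2-fold lower for 6 (0.141%), BLOC1S6, MPDZ, RPN2, MCF2L, SFXN3 and KDELR3. The higher ones are neuronal genes. STMN2 encodes stathmin-2, a tubulin-binding protein of growing axons. Its 2 probe sets read 508 and 464 in the control and 1247 and 962 in the knockdown array. NEFH encodes the heavy neurofilament subunit, and its probe sets read 117 and 185 in the control and 467 and 438 in the knockdown array, log2 ratios of 1.93 and 1.21. PEX5L, which regulates the membrane traffic of pacemaker channels, went from 107 to 241 and from 174 to 368 on its bright probe sets. Its 2 dim probe sets were also higher, at 2.03 and 1.81.

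RPN2 and KDELR3, of the 6 lower genes, act in the endoplasmic reticulum and Golgi. RPN2 encodes ribophorin II, a subunit of the oligosaccharyltransferase that glycosylates nascent proteins. Its 3 probe sets were among the brightest past 2-fold, at 7654, 16627 and 15555 in the control and 3481, 7218 and 7393 in the knockdown array. The narrow range of their log2 ratios, -1.20 to -1.07, is well inside the within-gene SD. KDELR3 encodes a receptor that returns escaped chaperones from the Golgi to the endoplasmic reticulum. It read 520 and 477 in the control and 217 and 231 in the knockdown array, and its dim probe set was lower too, at -1.68.

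BLOC1S6 was lower on 3 probe sets by unequal amounts, from 1257 to 197 (-2.62), from 698 to 240 (-1.51) and from 6835 to 2775 (-1.30). MPDZ, a scaffold protein with many PDZ domains, read 374 and 1087 in the control and 168 and 461 in the knockdown array. SFXN3, a mitochondrial serine transporter of the sideroflexin family, read 527, 378 and 307 against 251, 112 and 134. MCF2L, a guanine nucleotide exchange factor, was the least uniform. Its bright probe sets went from 238 to 111 and from 207 to 44.9, but 3 of its 6 dim probe sets lay above 0, up to 2.04.

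**Figure D2:**
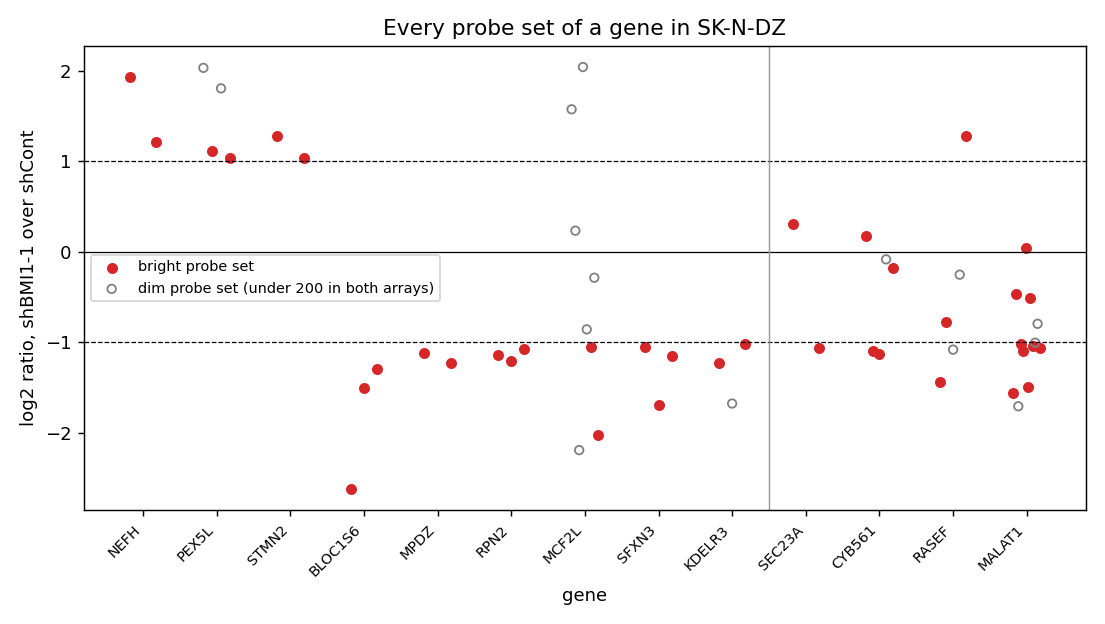
Log2 ratio of knockdown over control in SK-N-DZ (y axis) for every probe set of a gene (x axis); filled points are bright probe sets and open ones dim. Left of the vertical line are the 9 genes whose bright probe sets all passed 2-fold, dashed; right of it SEC23A, CYB561, RASEF and MALAT1 have bright probe sets on both sides of 0.

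To show the promoters of genes lower on every bright probe set, the 250 bases before the transcription start were taken from RefSeq (GRCh38.p14) for the 4 of the 6 with a single start in the table. They are RPN2 (chr20:37179080-37179329, plus strand), KDELR3 (chr22:38467846-38468095, plus strand), MPDZ (chr9:13279693-13279942, minus strand) and SFXN3 (chr10:101030984-101031233, plus strand). Each runs 5′ to 3′ in the direction of the gene, and capitals mark CCAAT boxes, searched as CCAAT and ATTGG:
RPN2: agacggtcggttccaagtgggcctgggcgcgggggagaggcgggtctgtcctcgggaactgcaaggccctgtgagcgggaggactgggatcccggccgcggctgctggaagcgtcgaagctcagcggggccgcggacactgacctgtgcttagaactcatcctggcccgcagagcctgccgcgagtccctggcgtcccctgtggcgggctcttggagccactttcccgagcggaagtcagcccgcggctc
KDELR3: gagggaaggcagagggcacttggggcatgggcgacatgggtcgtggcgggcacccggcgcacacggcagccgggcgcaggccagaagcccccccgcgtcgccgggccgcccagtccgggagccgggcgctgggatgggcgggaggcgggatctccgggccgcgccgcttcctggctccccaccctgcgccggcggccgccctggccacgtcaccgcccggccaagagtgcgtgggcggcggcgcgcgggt
MPDZ: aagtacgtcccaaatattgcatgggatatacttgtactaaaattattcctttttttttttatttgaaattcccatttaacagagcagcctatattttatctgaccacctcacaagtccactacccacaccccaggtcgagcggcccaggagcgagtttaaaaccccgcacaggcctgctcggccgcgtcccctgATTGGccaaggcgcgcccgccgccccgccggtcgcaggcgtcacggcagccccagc
SFXN3: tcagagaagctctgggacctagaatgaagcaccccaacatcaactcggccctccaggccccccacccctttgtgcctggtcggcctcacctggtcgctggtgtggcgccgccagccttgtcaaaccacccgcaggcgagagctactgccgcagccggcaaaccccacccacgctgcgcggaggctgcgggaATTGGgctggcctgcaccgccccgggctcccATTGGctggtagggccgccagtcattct
MPDZ had 1 CCAAT box and SFXN3 had 2, while RPN2 and KDELR3 had 0. One stood in the same window of 32.0% of all 35116 promoters in the table. The E-box CACGTG, a palindrome held by 6.34% of promoters, was in 0 of the 4. CpG pairs numbered 24 in RPN2, 35 in KDELR3, 17 in MPDZ and 16 in SFXN3, and 76.3%, 94.2%, 61.0% and 59.0% of promoters held fewer. Letters shared or missing in these windows say nothing of what binds there.

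At a threshold of 1.5-fold, added after the data were seen, 12 genes were higher (0.283%) and 36 lower (0.848%) on all bright probe sets. On the higher side, B4GALNT1, which makes the ganglioside precursor GM2, ranged from 0.72 to 0.93. SRD5A1, steroid 5-alpha-reductase, was higher on 3 probe sets, at 0.61 to 0.86. On the lower side, TFAM, which packages and transcribes mitochondrial DNA, was lower on 4 probe sets, from 3532 to 1901 on the brightest. DICER1, the ribonuclease that cuts microRNA precursors, was lower on 3 bright probe sets, with log2 ratios of -1.33, -1.19 and -0.72. ERGIC1, a cargo receptor between the endoplasmic reticulum and Golgi, was lower on 3 at -0.85 to -0.74. RDH11, a retinal reductase, read 4385 and 2189 on its brightest.

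Other 2-fold genes had probe sets that went apart. SEC23A, a coat protein of COPII vesicles, went from 2347 to 1117 on one probe set and from 201 to 252 on its dimmer one. CYB561, the cytochrome that supplies electrons for dopamine conversion in granules, was lower at -1.09 and -1.13 and near 0 at 0.18 and -0.18. RASEF, a RAB-family GTPase with EF hands, was lower on probe sets of 5270 and 3982 (-1.44 and -0.77) and higher on one of 125 (1.28). MALAT1 was below 0 on 8 of 9 bright probe sets, from -1.56 to -0.46, and at 0.04 on the remaining one. The widest disagreement lay in MYO6, the minus-end-directed myosin, with -4.37 and 0.07, MLLT10, with -2.63 to 0.62, and GNAS, the stimulatory G protein alpha subunit, with -2.85 to 0.15. In GNAS the 6 probe sets with the _x_at suffix read 13542 or more in the control and lay between -0.03 and 0.15, so the low value came from a probe set of 324. For these genes the choice of probe set sets the size of the difference.

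Genes with a single bright probe set led by size, and each of the 12 named was dim in 1 of the arrays. Higher were MESP2 (20.5 to 246), AKR1E2 (42.3 to 305), PAXX (43.1 to 256), KIF13B (55.3 to 299), CGNL1 (45.3 to 200.3) and UTS2R (69.7 to 243). PAXX is an accessory factor of non-homologous end joining and KIF13B a kinesin. Lower were PCSK7, a proprotein convertase (258 to 26.6), OR7E104P (379 to 83.4), COQ8B, needed for coenzyme Q synthesis (336 to 86.7), SMIM29 (222 to 55.9), CNGB1 (228 to 73.0) and ANKS1B (327 to 108). With the mean of all probe sets ANKS1B turned to 0.16 and several others moved toward 0. CGNL1 went from 1.97 to 0.65, AKR1E2 from 2.64 to 1.59, PCSK7 from -2.94 to -1.42, OR7E104P from -2.08 to -0.93, COQ8B from -1.86 to -1.11 and CNGB1 from -1.55 to -0.98.

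**Figure D3:**
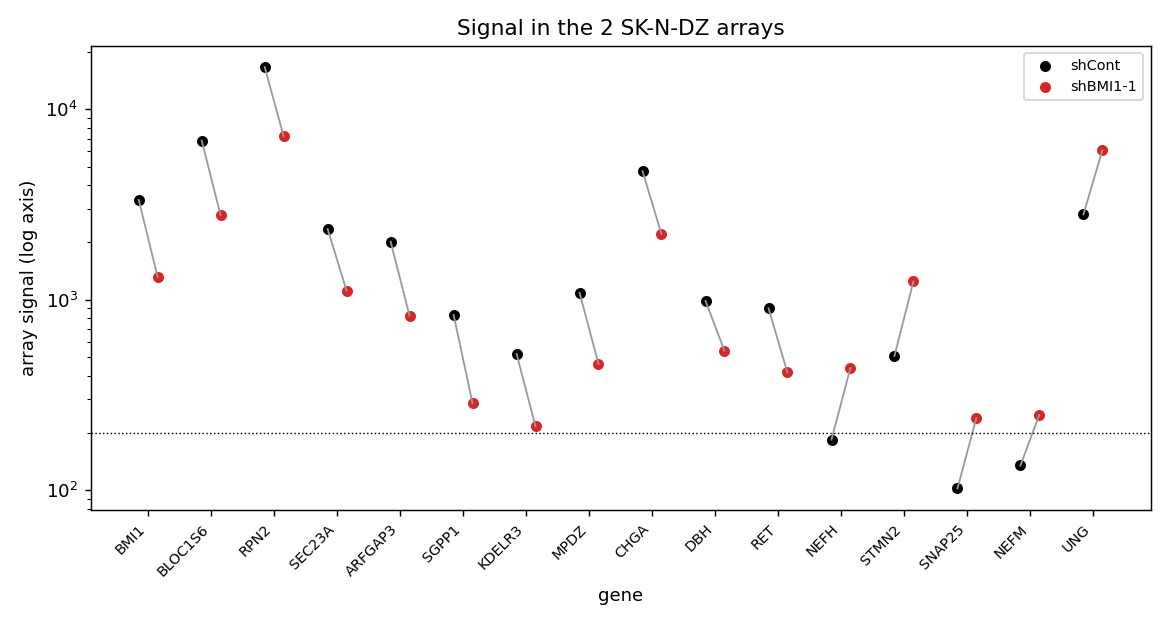
Signal in the control (black) and knockdown (red) array of SK-N-DZ for 16 genes described in the text (x axis), on a log axis; each line joins the 2 values of 1 probe set, with 1 array a side, and the dotted line marks 200. RPN2 goes from 16627 to 7218, while NEFH, SNAP25 and NEFM start below 200 in the control.

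In the lists of neuronal cytoskeleton, synaptic vesicle, voltage-gated channel and neuronal RNA-binding genes, more were higher than lower, by small amounts. Axon guidance genes went the other way, with 12 of 18 lower and a median of -0.11. Over all bright genes 0.773% were 2-fold higher and 0.865% 2-fold lower. Of 22 bright cytoskeleton genes 18 were higher, with a median log2 ratio of 0.14, beside 55.4% and 0.04 over all bright genes. STMN2 and NEFH passed 2-fold, and NEFM, the medium neurofilament subunit, read 135 and 249.5 (0.85). NEFL, the light subunit, was below 0 on all 3 of its probe sets, at -1.55, -0.29 and -0.26, of which the last was bright (215 to 178). STMN4 was at 0.53 (626 to 909.5), while the abundant TUBB3, neuronal tubulin, read 21176 and 23377 (0.14). PRPH, peripherin, went the other way at -0.80 (1939 to 1111). In synaptic vesicle genes 10 of 15 were higher (median 0.15), led by the small GTPase RAB3C at 1.50 (80.0 to 241) and the SNARE protein SNAP25 at 1.17 (102 to 239.9). RAB3C's other bright probe set was at 0.42, and the means of all probe sets were 0.96 for RAB3C and 0.27 for SNAP25. The calcium sensor SYT1 read 3235 and 4809 (0.57), and the vesicle protein SV2A was lowest at -0.43. Voltage-gated channels had the highest median of the 48 lists with at least 5 bright members, 0.40 (0.25 with the mean of all probe sets of each gene), with 9 of 11 higher. SCN8A passed 2-fold (97.6 to 234), though not with the mean of its probe sets (0.57), SCN3A was at 0.71 and KCNC1 at 0.66, and CACNA2D1, a calcium channel subunit, was at -0.55. Among RNA-binding factors, ELAVL2 was at 0.79 (1819 to 3153) and ELAVL4 at 0.49, and NOVA2 at -1.09 (217 to 98.1), with means of all probe sets of 0.40 for ELAVL2 and -0.29 for NOVA2.

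Genes of the noradrenergic secretory phenotype were lower or mixed. For comparison, 55.4% of all bright genes were above 0, with a median of 0.04, and 0.865% were 2-fold lower. Catecholamine genes had the lowest list median, -0.54 (-0.34 with the mean of all probe sets), with 5 of 6 bright members lower. DBH, which converts dopamine to noradrenaline, read 986 and 541 (-0.86, and -0.31 with that mean). GCH1, which makes the cofactor of tyrosine hydroxylase, was at -0.59 and MAOA, a degrading enzyme, at -0.49. CYB561 alone passed 2-fold, on part of its probe sets, and DDC, the decarboxylase, read 4384 and 4456. Granins split. CHGA, chromogranin A, went from 4724 to 2212 (-1.09), while CHGB, chromogranin B, went from 297 to 470 (0.65) and SCG3 was at 0.48. The transcription factors of the lineage differed less, with 9 of 13 below 0 and a median of -0.06 (-0.16 among members that reached a signal of 500). GATA3 was lowest at -0.44 (21064 to 15578), HAND2 was at -0.20 and PHOX2A at -0.10. With the mean of all probe sets GATA3 was at -0.24, and INSM1, otherwise at 0.36, turned to -0.10. RET, the receptor for GDNF-family ligands, read 902 and 416 (-1.10), beside ALK at 0.32 and FGFR1 at 0.50. With the mean of all its probe sets RET was at -0.28, and IGF1R, a growth factor receptor, turned from 0.36 to -0.24.

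Early secretory coat genes included 3 of the 85 lower genes among 30 bright members, ARFGAP3, KDELR3 and SEC23A, and 0 of the 76 higher, where 0.865% of all bright genes were 2-fold lower. SEC23A's dimmer probe set lay at 0.31. ARFGAP3, which inactivates the ARF GTPase on Golgi membranes, read 2017 and 825 (-1.28). The list median was -0.15, or -0.05 with the mean of all probe sets, with 11 of 30 above 0. Over all bright genes the median was 0.04, with 55.4% above 0. Several COPI subunits were lower under 2-fold, with COPE at -0.68, COPG1 at -0.53 and COPA at -0.49, and COPG2 was at 0.37. Of BLOC-1, BLOC1S6 alone passed 2-fold. BLOC1S3, another of its 7 measured subunits, was at -0.43, which turned to 0.50 with the mean of its probe sets. SGPP1, which removes phosphate from sphingosine 1-phosphate, read 833 and 287 (-1.51), while the other sphingolipid enzymes stayed under 2-fold, and the list median was 0.10, or -0.10 with the mean of all probe sets. AZIN1, an inhibitor of antizyme in polyamine control, lay just short of 2-fold (5194 to 2626, -0.98).

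**Figure D4:**
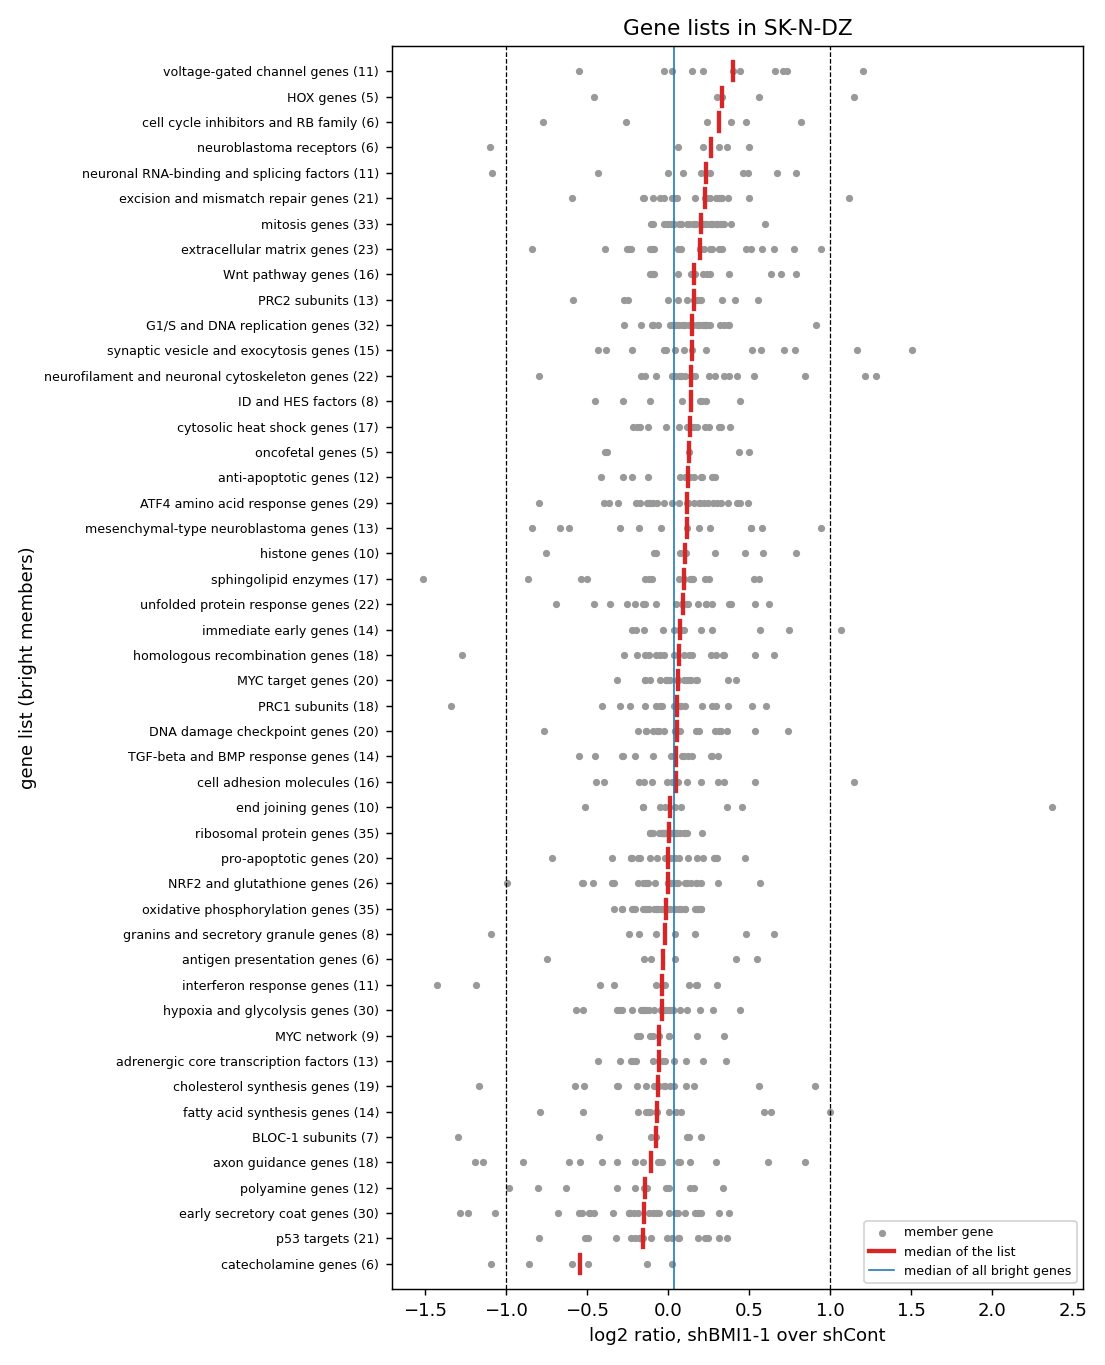
Log2 ratios in SK-N-DZ (x axis) of the bright members (grey points) of 48 gene lists (y axis, with the number of bright members), the list median (red bar), the median of all bright genes (blue line) and 2-fold (dashed). Catecholamine genes lie lowest, with a median of -0.54, and voltage-gated channel genes highest, at 0.40.

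Proliferation genes were slightly higher as a group, beside 55.4% above 0 and a median of 0.04 over all bright genes. Mitosis genes were above 0 in 28 of 33 cases, with a median of 0.20 and a range from -0.11 to 0.60, and G1/S and replication genes in 26 of 32, with a median of 0.15 (0.07 with the mean of all probe sets). PLK1, a mitotic kinase, was highest of the former (220 to 338), and E2F2 of the latter (412 to 784, 0.91, or 0.54 with that mean). In the other lines the mitosis median was -0.51 in NB-39-nu, 0.59 in SH-SY5Y and -0.11 in SK-N-BE. Of the cell cycle inhibitors, CDKN1B, which encodes p27, read 4562 and 6375 (0.48), and CDKN2D 153 and 276 (0.82, or 0.52 with that mean). RBL2, a relative of RB1, was at -0.77 (1569 to 916), and at -0.06 with that mean.

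Genes of the DNA damage response and apoptosis showed no common direction. Over all bright genes 55.4% were above 0, the median was 0.04 and 0.773% were 2-fold higher. Of 21 bright p53 targets 8 were higher, 0 passed 2-fold and the median was -0.16. SESN2, a stress sensor, was lowest at -0.80 (212 to 118), MDM2 was at -0.18 and PPM1D highest at 0.36. Pro-apoptotic genes were even, 10 of 20 higher with a median of 0.00, from BOK at -0.71 (-0.45 with the mean of its probe sets) to APAF1, the apoptosome scaffold, at 0.47. Anti-apoptotic genes had a median of 0.12, which turned to -0.12 with the mean of all probe sets of each gene. MCL1 was at 0.29 and BCL2L2 at -0.42, or 0.08 and -0.22 with that mean. Among checkpoint genes, ATM, the double-strand break kinase, read 606 and 353 (-0.77) and CDC25A, a phosphatase that the checkpoint targets, 1155 and 1933 (0.74). With the mean of all probe sets these were -0.28 for ATM and 0.26 for CDC25A. Excision and mismatch repair genes were higher in 15 of 21 cases, with a median of 0.23 and UNG at 1.11. End joining genes were higher in 5 of 10, with a median of 0.01 and PAXX at 2.37. Oxidative phosphorylation and ribosomal protein genes, with 35 bright members each, had medians of -0.01 and 0.00.

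Beside the other lines, SK-N-DZ differed between its arrays about as much as SH-SY5Y and SK-N-BE, where 1.48% and 1.18% of their own bright genes passed 2-fold, against 1.64% in SK-N-DZ and 7.39% in NB-39-nu. Across bright genes, which are not independent replicates and come from 1 array pair per line, its log2 ratios correlated at r = 0.16 with those of NB-39-nu, 0.10 with SH-SY5Y and 0.09 with SK-N-BE. Among all 9832 bright genes of SK-N-DZ, 511 had a log2 ratio of at least 1 in NB-39-nu, 141 in SH-SY5Y and 171 in SK-N-BE. At -1 or below were 236, 149 and 78 of the 9832. Of the 76 higher genes 22 were at 1 or above in NB-39-nu, which is 28.9% of them and 4.31% of the 511. In SH-SY5Y and SK-N-BE 5 and 2 were. At -1 or below were 2 of the 76 in NB-39-nu, 5 in SH-SY5Y and 3 in SK-N-BE. Of the 85 lower genes 14 were at -1 or below in NB-39-nu, 16.5% of them and 5.93% of the 236. In SH-SY5Y and SK-N-BE 6 and 8 were. At 1 or above were 10, 4 and 4 of the 85. Below 0 in all 3 other lines were 19 of the 85, with 8 above 0 in all 3. Above 0 in all 3 were 16 of the 76, with 3 below. Over all bright genes 18.1% lay on one side of 0 in all 4 lines, and in 10.3% SK-N-DZ lay opposite to the other 3.

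Genes lower on all probe sets differed in how the other lines read. BLOC1S6 was lower in each, at -1.46 in NB-39-nu, -0.86 in SH-SY5Y and -1.37 in SK-N-BE, and so was RPN2, at -1.49, -0.47 and -0.44. KDELR3 was below 0 in each too, at -0.50, -0.73 and -0.09. MCF2L was at -0.38, -0.07 and -0.07, but at 0.76, -0.26 and 0.11 on its other bright probe set. SGPP1 and ARFGAP3 were also below 0 in all 4 lines, and so was SEC23A on its brighter probe set. On its dimmer bright one SEC23A was at 0.31 in SK-N-DZ. There the other lines, in the order above, read -0.72, 0.10 and 0.08. These lines share the hairpin, and whether it reached these transcripts directly was not tested. STMN2 was higher in NB-39-nu at 3.36 but at -0.16 in SH-SY5Y and 0.14 in SK-N-BE. NEFH lay within 0.22 of 0 in the other lines on its brighter probe set and at -0.43, 0.54 and -0.25 on the other, and SFXN3 was above 0 in 2 of them. CHGA was at 1.06 in NB-39-nu, 0.60 in SH-SY5Y and -0.21 in SK-N-BE.

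**Figure D5:**
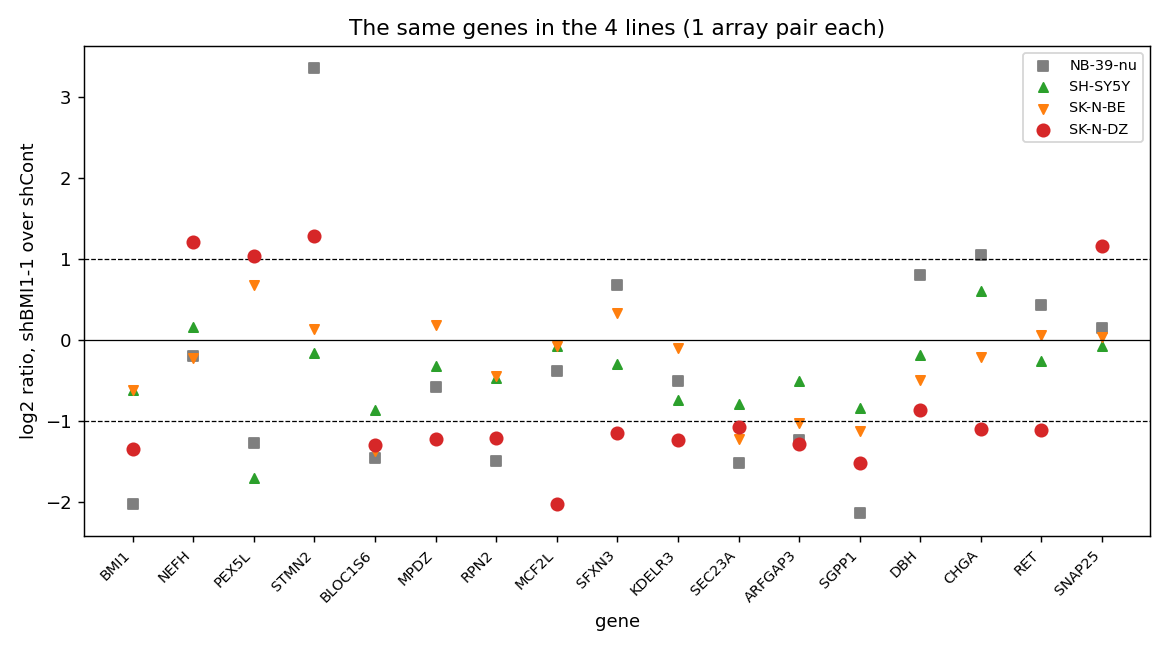
Log2 ratio of knockdown over control (y axis) in each of the 4 lines for BMI1, the 9 genes 2-fold on every bright probe set and 7 others (x axis); each point is 1 array pair and dashed lines mark 2-fold. On the probe set plotted, BMI1, BLOC1S6, RPN2, KDELR3, MCF2L, SEC23A, ARFGAP3 and SGPP1 lie below 0 in all 4 lines. On that probe set SK-N-DZ has the highest of the 4 values for NEFH, PEX5L and SNAP25. It has the lowest for MPDZ, MCF2L, SFXN3, KDELR3, ARFGAP3, DBH, CHGA and RET.

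The difference between the SK-N-DZ change and the mean change of the other 3 lines was tested with limma over 9888 genes, with line as a block. The lone SK-N-DZ pair is assumed to vary like the other lines, which leave 2 residual degrees of freedom. In this fit 0 genes passed (0% called, limma adjusted p under 0.05), and 238 had an unadjusted p under 0.05, 101 higher and 137 lower in SK-N-DZ. Without NB-39-nu 31 genes passed, without SH-SY5Y 9 and without SK-N-BE 0. The genes with the lowest p were mostly dim in SK-N-DZ, with 1 of the 10 named being bright. VIM, vimentin, which marks mesenchymal cells, had the lowest limma adjusted p, 0.0592, at a difference of -2.75 with a standard error of 0.26. Its signals were 112 and 14.0, and its adjusted p ran from 2.86e-06 without NB-39-nu to 0.9997 with a larger pseudocount. GAL, the neuropeptide galanin, went from 10.4 to 73.0, ETS1 from 64.3 to 2.20, DECR1 from 61.8 to 5.74 and PLIN2 from 102 to 8.97. In the other lines VIM read at least 17250 and GAL at least 4771, so these genes entered the fit through lines other than SK-N-DZ. EMP2, FUCA2, PLEKHG4 and TNFRSF10B were higher, all at 140 or less in both arrays.

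RASEF was the bright gene of these 10. Its change was -1.44 in SK-N-DZ against a mean of 0.67 in the others, a difference of -2.10 with a 95% interval from -2.93 to -1.28 and a limma adjusted p of 0.614. Restricted to the 9832 bright genes, a choice made after the data were seen, limma again called 0, and RASEF had the lowest unadjusted p. Next among the genes described above, in order of p, came PCSK7, OR7E104P, NEFH, RET, MCF2L, CHGA, KIF13B and SNAP25, each with a limma adjusted p of 0.9998 there. For NEFH the difference was 1.29, for CHGA -1.58 and for RET -1.19. These genes already stood out in the same SK-N-DZ arrays, so the sizes lend no independent support to a line difference. The interval of RASEF is likewise not adjusted for picking the gene by its p.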

How the data were processed

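The deposited series table gives an intensity (signal, linear) for every probe set of every array; GCOS and MAS5 made them, per the submitters' processing notes, with no version given. Each array has a mean of 500 after trimming 2% at each end. Of 54675 probe sets, 41097 had 1 gene in the platform annotation, 1801 several and 11777 none here; 41043 took a current symbol by gene ID. A gene took the probe set whose mean over the 8 arrays was highest, and ratios used a pseudocount of 8. The line difference used limma 3.58.1 under R 4.3.3 (lmFit, eBayes with trend, genes with a mean above the median, Benjamini-Hochberg adjustment) and tested on simulated data. Line is the block, since the labels name each array's line. Alternatives covered the pseudocount, quantile normalization, centring, probe set choice, brightness limits, filters and leaving out each other line.

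Named genes were BMI1, PRC1 members, reported targets and MYCN; genes 2-fold on all of 2 or more bright probe sets; the 6 largest each way with 1 bright probe set lacking an _s_at or _x_at suffix; 2 at each end of every list; the 5 lowest p each way in the fit; and the 3 widest disagreements. Other genes were chosen after their values were seen. Of the DNA repair lists, 1 gene is not reported here. Members and lists were chosen with earlier results of these data known. Scanner files were not used here, and the number of arrays limits the precision.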

Additional observations from a re-analysis of the deposited data

Results flagged for a closer look

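Bright probe sets that the annotation used here assigns to no single gene lie outside the gene counts. Of 2834 such probe sets, 32 were at least 2-fold higher and 59 at least 2-fold lower in the SK-N-DZ knockdown array. Of the 9832 bright genes, each read on 1 probe set, 76 (0.773%) and 85 (0.865%) were. The share over all bright probe sets was not computed, so whether these probe sets differ from the rest was not tested. The highest log2 ratio was 2.87 (48.2 to 404) and the lowest -3.17 (220.0 to 17.4). Every group of the series holds 1 array, so no array was compared with others of its group.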

How the results depend on the processing

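Counts of 2-fold genes followed the treatment of dim signals. The 76 higher and 85 lower genes became 27 and 36 with a pseudocount of the table median, 121 and 133 with the mean of all probe sets, 275 and 331 with a brightness limit of 100, 19 and 33 with 500, and 1613 and 1900 with none. No pseudocount, quantile normalization, centring on the bright median and leaving out probe sets with _s_at, _x_at or _a_at suffixes kept both counts within 1.5 times. Genes 2-fold on every bright probe set went from 3 higher and 6 lower to 0 and 2 with the larger pseudocount, 12 and 10 with a limit of 100, 1 and 2 with 500, and 12 and 36 at 1.5-fold. The limma difference fit called 3 genes with no pseudocount (VIM, GAL and ETS1), 1 with no filter and 1 with a mean above the 75th percentile (VIM in both), 0 with the larger pseudocount, quantile normalization or no trend, and 0 to 31 when 1 other line was left out. With the mean of all probe sets, 39 of 240 named genes turned sign, 3 of them among 42 bright genes past 2-fold (ANKS1B to 0.16, HOXD10 to -0.20 and SC5D to 0.53), and 16 of those 42 came under 2-fold. That setting also moved 86 named genes by more than the within-gene SD. It moved 20 of 48 list medians by more than the SD over the bright members divided by the square root of their number. That yardstick is not a test, since members of a list are not replicates. Quantile normalization moved 0 of the named genes and 0 of the list medians. The cause was not tested, beyond the larger pseudocount shrinking dim ratios by construction. The limma fit pairs the arrays of a line through the line as a block. No paired analysis was possible by replicate number, because the labels number no replicates within a line.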

Other observations

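Lipid genes had members at both ends. Of 19 bright cholesterol synthesis genes 13 were lower in the SK-N-DZ knockdown array, with a median log2 ratio of -0.06. SC5D passed 2-fold (4058 to 1800, -1.17), although its mean over all probe sets was 0.53, and LSS, lanosterol synthase, was at -0.57 (-0.12 with that mean). ABCA1, which exports cholesterol, was at 0.90 (352 to 665.5), or 0.39 with that mean, and the sterol carrier STARD4 at 0.56. In fatty acid synthesis SREBF1, the lipogenic transcription factor, read 188 and 382 (0.996, but 0.02 with that mean), and ACSS2, which makes acetyl-CoA from acetate, 478 and 272 (-0.79). Interferon response genes held 2 of the 85 lower genes among 11 bright members, IFITM2 (224 to 78.0) and IFI6 (457 to 196), while OAS1 read 3816 and 3618. Of all bright genes 0.865% were 2-fold lower.

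Axon guidance genes were lower in 12 of 18 cases, with a median of -0.11. The receptors ROBO3 (209 to 87.1) and PLXNA4 (206 to 88.7) passed 2-fold, both close to the brightness limit, beside 0.865% of all bright genes 2-fold lower. EPHA5, an ephrin receptor, was at 0.85 (142 to 263), and NRP1, a semaphorin co-receptor, at 0.61 (515 to 793). With the mean of all probe sets NRP1 turned to -0.27, and PLXNA4 was at -0.10 and EPHA5 at 0.19. Of matrix genes, FN1, fibronectin, read 11048 and 15746 (0.51), COL3A1, a fibrillar collagen, 158 and 311 (0.94), and LUM, lumican, 489.5 and 269.9 (-0.84).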
